A study of Mus musculus with 6 samples.

Results

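The cells described here were the Day 2 cells of "digits in a dish" (DID) cultures that carried RNA of *Tnmd*, the tenomodulin gene, and were proposed as tendon progenitors. They were taken as every barcode of the 2 Day 2 libraries with at least 3000 unique molecular identifiers (UMIs, each a counted RNA molecule), at most 7500 detected genes, at most 25% of UMIs from mitochondrial genes and at least 2 *Tnmd* UMIs. This gave 456 cells in replicate A and 459 in replicate B, 915 of the 18691 Day 2 cells within these limits and of 54126 such cells in all 6 libraries. The remaining 8493 and 9283 Day 2 cells of the same libraries, called the other cells below, were the comparison, replicate by replicate. Because the *Tnmd* count chose the cells, *Tnmd* itself is given only as a description and was left out of every test.

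The cultures were started from distal forelimb mesenchyme of wildtype CD-1 mouse embryos at E11.5, dissociated, pooled and seeded at high density without any added gene change. Day 2, Day 7 and Day 10 cultures were sampled, with 2 independent cultures (replicates A and B) per day, and each gave 1 library of 3' single-cell RNA sequencing. The labels name no allele or added agent that separates the groups, and every group shared the pooled wildtype background. Because embryos were pooled, single embryos could not be told apart within a library. The *Tnmd*-positive cells of Day 7 (457 and 475) and Day 10 (833 and 734), chosen by the same limits, entered the comparisons between days and the joint fit from which the Day 2 tests took their estimate of spread.

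Tendons of the limb arise from mesenchymal progenitors that switch on *Scx*, which encodes the basic helix-loop-helix transcription factor scleraxis. *Tnmd* encodes tenomodulin, a transmembrane glycoprotein of tendon and ligament cells whose expression depends largely on scleraxis, and it is commonly read as a later step of the same program. Developing tendon cells then build a matrix of fibrillar collagens whose fibrils are shaped by small leucine-rich proteoglycans such as fibromodulin. In the autopod these cells lie beside condensing cartilage, marked by *Sox9* and *Col2a1*, beside joint interzones, marked by *Gdf5*, and beside muscle that enters from outside the limb mesenchyme.

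*Tnmd* (ENSMUSG00000031250) lies on chromosome X, 133850980 to 133865577, plus strand of the GRCm38 mouse genome, and *Scx* (ENSMUSG00000034161) on chromosome 15, 76457452 to 76459458, plus strand. The upstream sequence of 4 genes is printed to show what lies before the gene that defined the cells, before *Fmod* (fibromodulin) and *Chodl* (chondrolectin, a membrane protein with a C-type lectin domain), both higher in these cells, and before *Cnmd*, the cartilage gene most closely related to *Tnmd*, which was lower. Each is the 200 bases from 250 to 51 bases before the RefSeq transcription start (RefSeq, GRCm38.p6), 5' to 3' on the gene's strand. None of the 4 windows overlaps the annotated span of its own gene, and overlap with other genes was not checked. The E-box core CANNTG, which reads the same on both strands and is the class of motif bound by helix-loop-helix factors such as scleraxis, is in capitals.
Tnmd, chrX:133850758-133850957, plus strand: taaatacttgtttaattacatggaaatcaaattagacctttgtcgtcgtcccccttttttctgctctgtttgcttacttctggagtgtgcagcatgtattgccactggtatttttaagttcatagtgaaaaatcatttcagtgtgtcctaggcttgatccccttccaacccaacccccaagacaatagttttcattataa
Fmod, chr1:134037004-134037203, plus strand: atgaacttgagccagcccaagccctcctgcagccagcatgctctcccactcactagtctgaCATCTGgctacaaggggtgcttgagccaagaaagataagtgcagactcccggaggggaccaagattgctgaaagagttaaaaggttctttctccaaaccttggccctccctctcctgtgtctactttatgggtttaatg
Chodl, chr16:78930698-78930897, plus strand: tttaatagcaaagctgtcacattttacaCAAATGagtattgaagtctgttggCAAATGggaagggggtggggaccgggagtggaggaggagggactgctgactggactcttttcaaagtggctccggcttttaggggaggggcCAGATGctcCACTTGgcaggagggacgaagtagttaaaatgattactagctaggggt
Cnmd, chr14:79662234-79662433, minus strand: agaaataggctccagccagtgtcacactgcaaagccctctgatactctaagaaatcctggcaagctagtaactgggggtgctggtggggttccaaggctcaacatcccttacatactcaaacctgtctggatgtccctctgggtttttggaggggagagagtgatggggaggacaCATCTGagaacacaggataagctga

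The *Tnmd* window held 0 E-box cores, the *Fmod* window 1, the *Chodl* window 4 and the *Cnmd* window 1. Of 32851 RefSeq promoters searched over the same 200 bases, 59.0% held at least 1 core and 2.02% held at least 4, with a median of 1. Among the 12 genes most increased in the *Tnmd*-positive cells, named below, 9 had a promoter in the table and 6 of these (66.7%) held a core, against 6 of 11 (54.5%) for the 12 most decreased genes and 9 of 14 (64.3%) for the cartilage genes. These shares lay around that of all promoters, and a core in this window is a match of letters and not a binding site. The named genes were each counted once, by their promoter with the most cores, whereas the share of all promoters counts each promoter. This favours the named genes.

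The *Tnmd*-positive cells made up 5.1% of the Day 2 cells in replicate A (95% exact binomial interval 4.65 to 5.57) and 4.71% in replicate B (4.3 to 5.15). The intervals overlapped, and they cover counting error only. By the same limits the share was 4.89% and 5.07% at Day 7 and 9.98% and 8.78% at Day 10, where the other cells were also deeper (median 29013 and 27492 UMIs, against 18901 and 12372 at Day 2). With each cell thinned to 3000 UMIs, at least 1 *Tnmd* UMI was expected in 2.31% and 4.79% of the Day 2 cells. The shares were 3.17% and 3.23% at Day 7 and 5.51% and 4.78% at Day 10. At this threshold Day 10 replicate B was not above Day 2 replicate B. At the rule's own threshold of at least 2 UMIs, the thinned shares were 0.521% and 0.837% at Day 2 and 0.912% and 0.937% at Day 7. They were 1.79% and 1.59% at Day 10, so that both Day 10 replicates were above both Day 2 replicates. A median *Tnmd*-positive cell held 4 and 3 *Tnmd* UMIs, the highest counts were 29 and 26, and the *Tnmd*-positive cells together held 89.6% and 80.1% of all *Tnmd* UMIs of the cells within the limits. Summed, *Tnmd* stood at 149.8 and 174 CPM (UMIs scaled to the same total in every sum) in the *Tnmd*-positive cells and at 1.46 and 3.77 CPM in the other cells.

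The *Tnmd*-positive cells were deeper than the other cells, which a rule of at least 2 UMIs favours. Their median total was 32929 and 29788 UMIs against 18901 and 12372, and their median number of detected genes 5768 and 5446 against 4526 and 3606. The mitochondrial share was slightly lower, with medians of 1.58% and 1.91% against 1.88% and 2.22%. Every comparison was therefore repeated in a depth window, meaning cells between the 25th and 75th percentile of the *Tnmd*-positive cells' totals in their own library, which left 229 *Tnmd*-positive cells per replicate and median totals of 32951 and 29788 against 31423 and 22386 UMIs. In replicate B the window still left the other cells shallower, so the Day 2 comparison was also repeated with cells of at least 20000 UMIs.

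Free RNA can add UMIs to cells that do not express a gene, and the muscle-lineage cells, those with at least 2 UMIs of the myogenic factor *Myod1*, served as the type that should lack *Tnmd*. At least 1 *Tnmd* UMI was found in 4.79% and 5.13% of the 334 and 195 such cells, whose median totals were 25486 and 30191 UMIs, against 8.21% and 10.6% of all Day 2 cells. After every cell was thinned to 3000 UMIs, the expected shares were 0.652% and 1.01% of the *Myod1* cells and 2.31% and 4.79% of all cells. Thinned, the share in all cells was thus above that in the *Myod1* cells in both replicates. At 2 or more UMIs, 4 and 4 *Myod1* cells (1.2% and 2.05%) were themselves *Tnmd*-positive.

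Among the 2 replicates the Day 2 barcode lists shared 62 barcodes, of which 16 passed the limits and 0 were *Tnmd*-positive in both; pairs of all 6 libraries shared 36 to 120. The UMIs behind the sums were 15967703 and 13370527 for the *Tnmd*-positive cells and 190480583 and 153426871 for the other cells. Replicate B had the shallower barcodes, with 49% of its barcodes under 3000 UMIs against 16.2% in replicate A. Besides the limit of 7500 genes no doublet filter was applied, and that limit removed 135 and 124 barcodes with at least 2 *Tnmd* UMIs.

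The label of tendon progenitors was checked first against *Scx*, which the rule did not use. At least 2 *Scx* UMIs were found in 85.7% and 73% of the *Tnmd*-positive cells, in 47% and 32% of the other cells, which were shallower, and in 63.1% and 47% of the other cells in the depth window. The first of these shares covers all *Tnmd*-positive cells, in and out of the window. The *Myod1* cells, which should lack *Scx*, held at least 2 UMIs in 20.4% and 15.4%. Thinned to 3000 UMIs, at least 1 *Scx* UMI was expected in 47.6% and 46.1% of the *Tnmd*-positive cells, 27.2% and 25.8% of the other cells and 7.66% and 6.37% of the *Myod1* cells. *Scx* was thus more frequent in the *Tnmd*-positive cells of both replicates but was common in the other Day 2 cells too, and 39 and 70 *Tnmd*-positive cells (8.55% and 15.3%) had no *Scx* UMI.

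The share of *Tnmd*-positive cells climbed with the *Scx* count of the cell, which also grows with its depth. It was 1.31% and 1.58% among Day 2 cells with 0 *Scx* UMIs, 7.63% and 9.72% among those with 4 to 7, 15.3% and 17.8% among those with 8 to 15 and 30.7% and 35.5% among those with 16 or more. Within the depth window the share ran from 2.65% and 1.12% at 0 *Scx* UMIs to 27.4% and 29.3% at 16 or more. Of all Day 2 cells with at least 2 *Scx* UMIs, 8.92% and 10.1% were *Tnmd*-positive and 86.6% and 82.4% had no *Tnmd* UMI. Even in the highest *Scx* class most cells were therefore not *Tnmd*-positive at these depths.

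**Figure D1:**
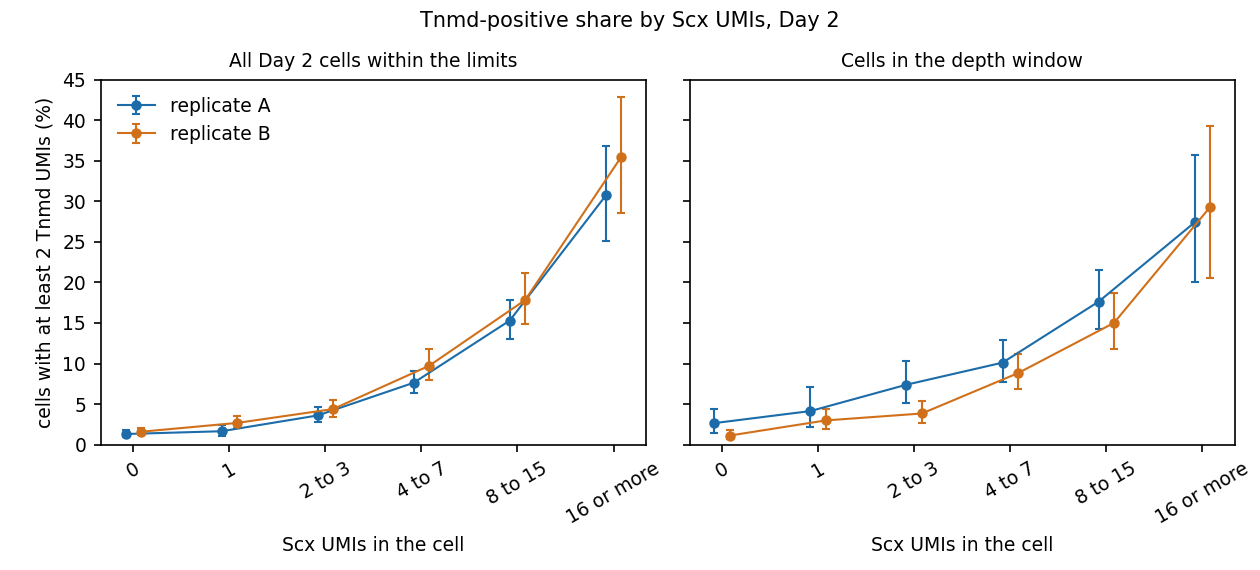
Percentage of Day 2 cells that were *Tnmd*-positive (vertical axis) by the number of *Scx* UMIs in the cell (horizontal axis), for replicates A and B, over all cells (left) and within the depth window (right), with bars for the 95% exact binomial interval. In both replicates the share was highest at 16 or more *Scx* UMIs, 30.7% and 35.5% over all cells.

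Around the threshold, 135 and 158 cells held exactly 2 *Tnmd* UMIs and 279 and 578 held exactly 1. The cells with exactly 2 had median totals of 29732 and 19272 UMIs and *Scx* at 238 and 197 CPM, scaled to the total of the class. The cells with exactly 1, which count among the other cells, had median totals of 29718 and 7552 UMIs and *Scx* at 198 and 199 CPM, against 125 and 111 CPM in cells with 0 *Tnmd* UMIs. The cells just inside and just outside the rule were thus close to each other in *Scx*, and in replicate B those just outside were far shallower.

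From 0 to 10 or more *Tnmd* UMIs per cell, the levels of *Scx*, *Fmod* and *Col3a1* were higher and those of *Sox9* and *Col2a1* lower in both replicates. *Scx* went from 125 and 111 to 311 and 301 CPM, *Fmod* from 5.16 and 5.26 to 40.7 and 32.5 and *Col3a1*, a fibrillar collagen chain that the study also used to name its tenocytes, from 195 and 223 to 582 and 541. *Col2a1*, the main cartilage collagen, went from 665 and 782 to 87.2 and 91.8 CPM and *Sox9*, the cartilage transcription factor, from 393 and 437 to 155 and 126. *Hoxa13*, a homeobox gene of the distal limb, went from 24.6 and 23.3 to 0.823 and 0.357 CPM. *Mkx* (Mohawk), a homeobox regulator of tendon, was at 12.1 and 13.6 CPM in the lowest class and at 10.7 and 16.4 CPM in the highest. The tenocyte genes *Col14a1* and *Tppp3* had lower levels in the highest class, with *Col14a1* at 39.7 and 29.4 CPM at 0 *Tnmd* UMIs and 5.35 and 8.57 CPM at 10 or more, and *Tppp3* at 8.66 and 7.69 against 5.76 and 3.93 CPM. These classes were defined by *Tnmd* itself and are given without a test.

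**Figure D2:**
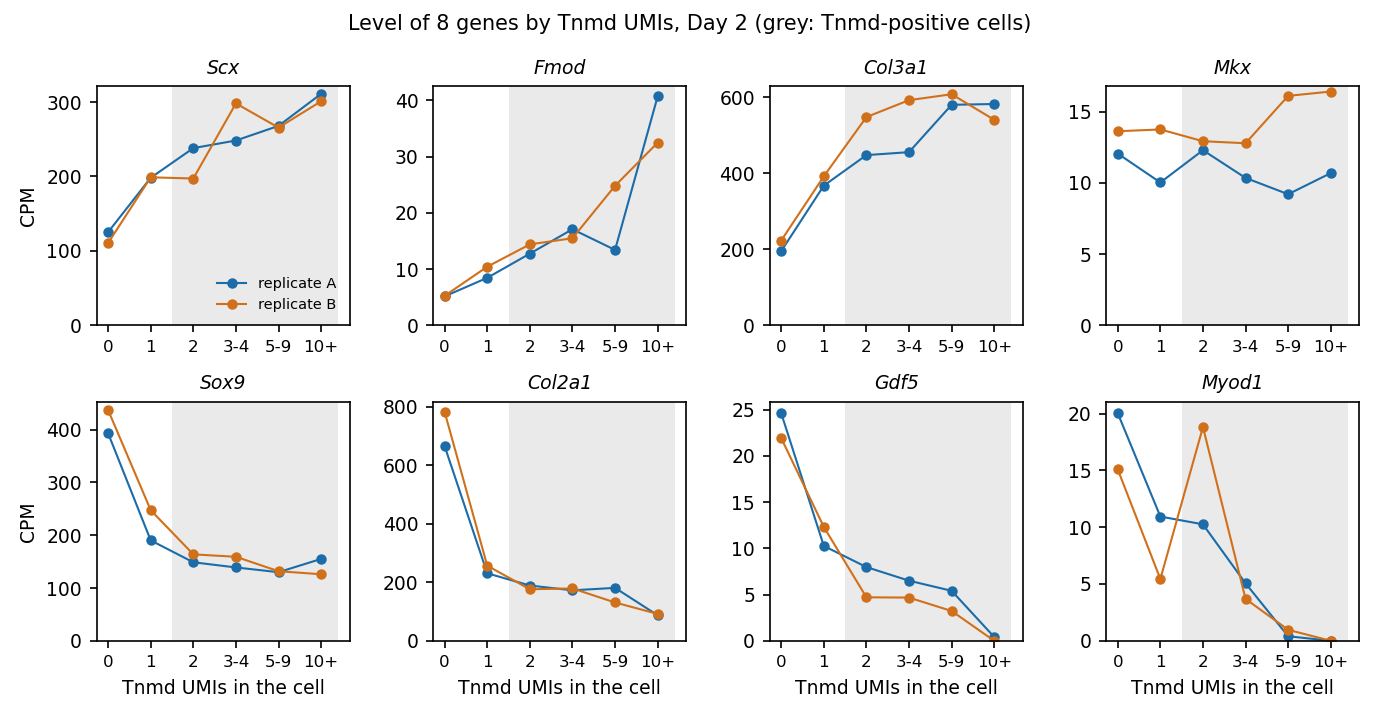
Level of selected genes (vertical axis, CPM of the summed UMIs of each class) by the number of *Tnmd* UMIs per cell (horizontal axis) at Day 2, for replicates A and B, with the *Tnmd*-positive classes shaded grey. *Scx* and *Fmod* were highest in the class with 10 or more *Tnmd* UMIs in both replicates and *Col3a1* in replicate A alone, and in that class *Sox9* and *Col2a1* were below their levels in cells with 0.

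Across all genes, the summed UMIs of the *Tnmd*-positive cells were compared with those of the other cells of the same library. Of 18069 genes tested, 2739 (15.2%) were higher and 3453 (19.1%) lower in the *Tnmd*-positive cells at an adjusted p under 0.05 (quasi-likelihood F test of edgeR, blocked by library, with Benjamini-Hochberg adjustment over all genes, fitted to the sums of all 3 days, which share 1 estimate of spread per gene), and 385 (2.13%) and 792 (4.38%) of these by at least 2-fold. Calls were thus frequent, and the shares just given are the background against which the counts of each gene list below are to be read. Fitted to the Day 2 libraries alone, 3265 were higher and 3055 lower of 16806. In the depth window 1822 (11%) were higher and 2012 (12.2%) lower of 16523, and 3637 of the 6192 calls were kept, while 4 turned direction. The balance of directions depended on the scaling, since 44.2% of the calls were higher with TMM scaling and 56.8% with DESeq2 size factors, a shift of 0.054 in the median log2 fold change.

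Of the 5769 genes that reached 20 CPM in either group, 48 were higher and 96 lower by at least 2-fold. The values of single genes that follow are CPM after TMM scaling, first replicate A and then replicate B, and fold changes compare *Tnmd*-positive with other cells of the same library. Because the values are sums over cells, fewer cells with a transcript and less transcript per cell cannot be told apart. A signed value in parentheses without a name is a log2 fold change. An SE is the absolute log2 fold change divided by the square root of the F statistic of the test. It is not a separate estimate. Where a group holds few UMIs, as for the globin genes below, it can be smaller than the counting error.

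The largest increase among genes of at least 20 CPM was that of *Chodl* (ENSMUSG00000022860, chromosome 16, 78930948 to 78951733, plus strand), at 24.6 and 19.7 CPM in the *Tnmd*-positive cells and 1.97 and 2.59 in the other cells (log2 fold change 3.29, SE 0.28, adjusted p = 6.0e-08). Its level in both *Tnmd*-positive sums lay far above both other sums, 9.8 times by the fit, and the log2 fold change in the depth window was 3.56. *Actg2* (ENSMUSG00000059430, chromosome 6, 83512905 to 83536265, minus strand), the gamma actin of smooth muscle, stood at 136 and 109.7 against 24.1 and 22.1 CPM (log2 fold change 2.41, SE 0.05, adjusted p = 3.0e-15). The transcriptional coregulator gene *Cited1* stood at 53 and 55 against 9.15 and 12.2 CPM (log2 fold change 2.35, SE 0.08, adjusted p = 9.0e-13). The groups did not overlap for any of these 3 genes, which were chosen by fold change and by the same sign in both libraries. Of the 6192 called genes, 6185 had the same sign in both libraries. Groups that do not overlap, here and below, therefore set a called gene little apart, and their share among all genes was not counted.

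*Emx2*, known from limb girdle and brain patterning, was at 20.1 and 29.5 against 4.34 and 5.69 CPM (log2 fold change 2.29, SE 0.10, adjusted p = 2.4e-11). *Meox1* was at 45.9 and 43.9 against 13.6 and 12.3 CPM and *Meox2* at 33.8 and 45.1 against 11 and 14.2 CPM, both mesenchyme homeobox genes known from somites and limb muscle, with log2 fold changes of 1.79 (SE 0.07, adjusted p = 5.6e-12) and 1.64 (SE 0.06, adjusted p = 1.5e-12). All 3 were higher in the *Tnmd*-positive cells of each replicate by more than the gap between replicates.

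*Itih5*, an inter-alpha-trypsin inhibitor heavy chain, was at 40.8 and 32.3 against 6.77 and 9.93 CPM (log2 fold change 2.17, SE 0.13, adjusted p = 1.3e-09). *Phex*, a membrane endopeptidase known from phosphate handling in bone, was at 22.2 and 27.6 against 5.35 and 6.4 CPM (log2 fold change 2.08, SE 0.11, adjusted p = 2.6e-10). *Igfbp3*, a binding protein of insulin-like growth factors, was at 57.1 and 63.1 against 19.5 and 19.4 CPM (log2 fold change 1.62, SE 0.05, adjusted p = 4.0e-13). *Penk*, which encodes the enkephalin precursor, was at 70.1 and 70.2 against 21.4 and 24.5 CPM (log2 fold change 1.62, SE 0.04, adjusted p = 4.2e-14), and *Pcp4*, a small regulator of calmodulin, at 86.3 and 112 against 23.7 and 27 CPM (log2 fold change 1.96, SE 0.07, adjusted p = 2.2e-12). The list of 12 closed with *Aspn*, the leucine-rich proteoglycan asporin, at 79.4 and 83.1 against 24.4 and 28.8 CPM (log2 fold change 1.62, SE 0.05, adjusted p = 2.8e-13). In the depth window the 12 log2 fold changes lay between 1.54 (*Pcp4*) and 3.56 (*Chodl*), and all 12 passed there.

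The 12 largest decreases among genes of at least 20 CPM were those of 2 globin genes, 7 genes of striated muscle and 3 cartilage-associated genes. *Hbb-y*, an embryonic globin, was at 0.287 and 0.731 against 23.8 and 78.7 CPM (log2 fold change -6.64, SE 0.14, adjusted p = 4.2e-14), although DESeq2 did not call it (adjusted p = 0.38), and *Hba-a1* was at 0.229 and 0.465 against 25.6 and 42.3 CPM (log2 fold change -6.62, SE 0.16, adjusted p = 3.4e-14). At least 2 *Hbb-y* UMIs were found in only 6 and 14 of the other cells and in 1 and 0 of the *Tnmd*-positive cells. At least 1 was found in 0.506% and 2.01% of the other cells and in 0.877% and 2.4% of the *Tnmd*-positive cells. The *Hbb-y* decrease in the sums thus rested on few cells. Globin genes have near-identical copies, so that the split of reads between *Hba-a1* and *Hba-a2* is uncertain. The genes of striated muscle had log2 fold changes of -3.56 for *Myl4*, -3.36 for *Tnnc2*, -3.03 for *Myh3*, -2.97 for *Acta1*, -2.87 for *Neb*, -2.78 for *Mylpf* and -2.77 for *Ttn*, which encode myosin, troponin, actin, nebulin and titin chains. The cartilage-associated genes were *Col11a2*, *Cytl1* and *Mia*.

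*Cytl1*, a secreted cytokine-like protein known from cartilage, was at 9.4 and 4.05 against 58 and 59.7 CPM (log2 fold change -3.09, SE 0.13, adjusted p = 1.2e-11). *Mia*, a small protein secreted by chondrocytes, was at 26.4 and 21.4 against 159 and 152 CPM (log2 fold change -2.70, SE 0.05, adjusted p = 1.6e-15). *Col11a2*, a chain of cartilage collagen XI, was at 2.69 and 2.06 against 20.7 and 25.8 CPM (log2 fold change -3.26, SE 0.13, adjusted p = 4.7e-12). For each of these genes both *Tnmd*-positive sums lay below both other sums.

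**Figure D3:**
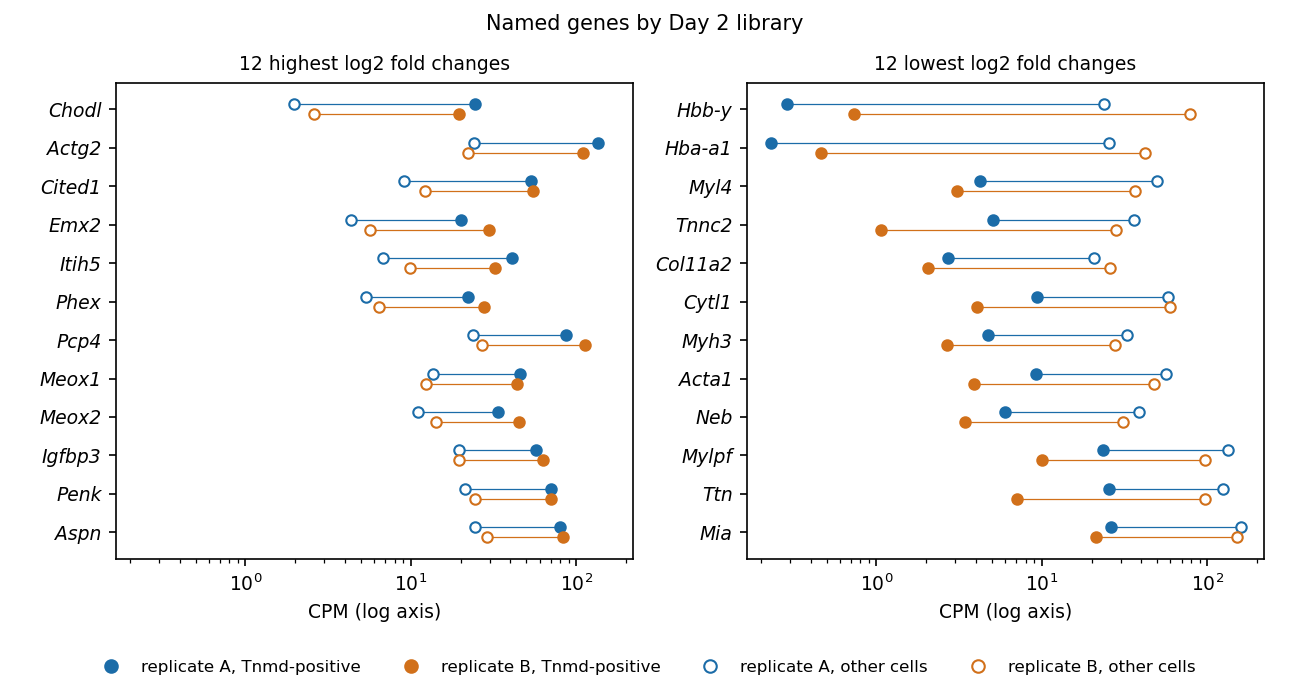
Level (horizontal axis, CPM on a log axis) of the 12 most increased (left) and 12 most decreased genes (right) of at least 20 CPM at Day 2 (vertical axis), with filled points for the *Tnmd*-positive cells, open points for the other cells and a line joining those of the same replicate. For all 24 genes the filled points of both replicates lie on the same side of both open ones, and the genes were chosen by this fold change.

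Among 12 transcription regulators known from tendon development, 6 were higher and 4 lower in the *Tnmd*-positive cells (6 and 1 in the depth window), with a median log2 fold change of 0.33 against -0.07 over all genes. *Scx* was at 239 and 236 CPM in the *Tnmd*-positive cells and at 115 and 102 in the other cells (log2 fold change 1.13, SE 0.05, adjusted p = 1.3e-11), with a log2 fold change of 1.11 in the window. The replicates were close to each other and the groups far apart, a difference of 2.19-fold. The transcriptional coactivator genes *Eya1* and *Eya2* were at 5.5 and 8.24 against 2.66 and 3.41 CPM and at 22.8 and 24.2 against 13.8 and 12.8 CPM, with log2 fold changes of 1.17 and 0.82. The groups did not overlap for either gene.

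*Mkx* did not pass the test, at 9.69 and 12.8 against 10.7 and 12 CPM (log2 fold change -0.03, SE 0.08, adjusted p = 0.85), and the groups overlapped. The zinc-finger genes *Egr1* and *Egr2* had opposite signs, with *Egr1* at 303 and 346 against 426 and 442 CPM (-0.42, adjusted p = 3.4e-08) and *Egr2* at 7.91 and 12.6 against 6.03 and 6.56 CPM (0.68, adjusted p = 1.1e-04). *Egr1* is also an early gene of the response to tissue dissociation, whose other members are given below. *Etv4*, an ETS factor induced by FGF, was higher at 20.4 and 19.1 against 11.2 and 10.3 CPM (0.87, adjusted p = 2.6e-08).

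Of the rest, *Six2* (-0.60, adjusted p = 0.0082), *Etv5* (-0.29, adjusted p = 0.015) and *Tgif1*, a corepressor of TGF-beta signalling (-0.40, adjusted p = 6.9e-05), were called lower, but none of them passed in the depth window (adjusted p = 0.19, 0.078 and 0.055). Without Day 2 replicate A, *Six2* had a log2 fold change of -0.30 (adjusted p = 0.36) and *Etv5* of -0.26 (adjusted p = 0.14), and without replicate B *Etv5* of -0.31 (adjusted p = 0.078), and none of these passed. In these fits 1 Day 2 library is assumed to vary like the libraries of the other days. *Nfatc4*, a calcium-dependent factor, did not pass (-0.10, adjusted p = 0.13). *Scx*, *Eya1*, *Eya2*, *Egr2* and *Etv4* were among the regulators called higher both over all cells and in the window.

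Of 10 products of differentiated tenocytes, 4 were higher and 2 lower (4 and 1 in the depth window). Besides *Chodl*, *Fmod* (ENSMUSG00000041559, chromosome 1, 134037254 to 134048277, plus strand) was at 16.8 and 18.6 against 4.74 and 4.9 CPM (log2 fold change 1.87, SE 0.12, adjusted p = 1.9e-09). *Thbs4*, a thrombospondin of tendon matrix, was at 4.64 and 4.45 against 0.618 and 0.512 CPM (log2 fold change 2.999, SE 0.48, adjusted p = 1.1e-04), and *Cpxm2*, a carboxypeptidase-family gene, at 0.745 and 1.53 against 0.346 and 0.448 CPM (log2 fold change 1.49, adjusted p = 8.4e-04). All values of *Fmod* and *Thbs4* in the *Tnmd*-positive cells were above those in the other cells. At the level of cells, 14.3% and 12.9% of the *Tnmd*-positive cells held at least 2 *Fmod* UMIs, against 2.31% and 1.54% of the other cells, which were shallower. Thinned to 3000 UMIs, at least 1 *Fmod* UMI was expected in 5.33% and 6.28% of the *Tnmd*-positive cells, 1.46% and 1.64% of the other cells and 0.101% and 0.655% of the *Myod1* cells.

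*Col14a1*, a fibril-associated collagen of embryonic tendon, was lower at 8.94 and 6.11 against 34.4 and 25.1 CPM (log2 fold change -1.98, SE 0.09, adjusted p = 3.4e-11). *Tppp3*, a gene of tendon sheath and paratenon cells, was at 5.67 and 5.45 against 7.76 and 6.68 CPM (-0.38, adjusted p = 0.019) and did not pass in the window (adjusted p = 0.15). At least 2 *Tppp3* UMIs were held by 332 and 201 other cells, and by 154 and 90 *Myod1* cells, nearly all of which were other cells. The part of the *Myod1* cells in this decrease was not tested. *Kera*, the keratocan gene that marks maturing tendon, was at 0.459 and 0.266 against 0.0843 and 0.178 CPM and did not pass (adjusted p = 0.19). *Clec3b*, *Cilp* and *Htra3* did not pass either, with adjusted p from 0.077 to 0.77. Thus some products of tenocytes were higher at Day 2, others were lower and others were not called. Of those not called, *Kera*, *Clec3b* and *Cilp* were near the lower end of detection. *Htra3* was not, at 6.36 and 5.91 against 7.95 and 6.5 CPM.

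Genes of fibrillar collagens and of the enzymes that assemble them were mostly higher, with 15 of 22 higher and 2 lower, *Col14a1* and *Plod1* (14 and 1 in the window) and a median log2 fold change of 0.40. *Col3a1* was at 468 and 509.6 against 181 and 205 CPM (log2 fold change 1.34, SE 0.03, adjusted p = 1.2e-14). *Lox*, the enzyme that crosslinks collagen, was at 62.4 and 55.1 against 25.5 and 26.6 CPM (log2 fold change 1.17, SE 0.06, adjusted p = 2.5e-10), and *Col6a3*, a collagen VI chain, at 26.4 and 24.5 against 13.1 and 14.1 CPM (log2 fold change 0.91, SE 0.06, adjusted p = 2.4e-09). *Col14a1* was the only collagen chain gene of the list called lower. The main tendon collagen chain genes *Col1a1* and *Col1a2* were at 636 and 586 against 492 and 501 CPM and at 481 and 465 against 287 and 293 CPM, which was a small difference for *Col1a1* (0.30, SE 0.04) and a larger one for *Col1a2* (0.71, SE 0.03).

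Among small leucine-rich and matricellular proteins, which regulate fibril growth and cell contact with the matrix, 11 of 18 were higher and 4 lower (10 and 2 in the window). Next to *Aspn*, the osteoglycin gene *Ogn* was at 197 and 226 against 82.4 and 93.2 CPM (log2 fold change 1.27, SE 0.03, adjusted p = 7.3e-15). *Tnc*, tenascin C of early tendon matrix, was at 186 and 172 against 107 and 106 CPM (log2 fold change 0.75, SE 0.05, adjusted p = 4.3e-09), and *Postn*, periostin, at 20.3 and 22.6 against 14.4 and 11.2 CPM (log2 fold change 0.74, SE 0.10, adjusted p = 1.6e-05). The called decreases were those of *Prelp*, *Comp*, *Ccn1* and *Ccn2*, from -0.49 (*Ccn2*) to -2.19 (*Comp*, at 0.229 and 0.399 against 1.27 and 1.57 CPM). *Comp*, a matrix protein of cartilage and mature tendon, was near the limit of detection in both groups.

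Elastic microfibril genes went both ways, with 6 of 14 higher and 4 lower (5 and 4 in the window). *Fbln5*, an organiser of elastic fibres, was at 92.4 and 83.5 against 42.5 and 40.9 CPM (log2 fold change 1.08, SE 0.05, adjusted p = 1.2e-11), whereas *Fbln2* was at 107 and 82.1 against 167 and 156 CPM (log2 fold change -0.77, SE 0.06, adjusted p = 1.1e-08). *Fbn2*, the fibrillin most expressed in embryos, was at 419.9 and 463 against 336 and 367 CPM (log2 fold change 0.33, adjusted p = 1.3e-07) and *Ltbp3*, a latent TGF-beta binding protein, at 15 and 16.4 against 23.2 and 22.8 CPM (-0.55, adjusted p = 3.3e-06). The called decreases were *Eln*, *Fbln2*, *Ltbp1* and *Ltbp3*. The 2 fibulins thus lay on opposite sides of 0.

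Contractile genes of the smooth-muscle type, which fibroblasts also use, were higher almost throughout, with 9 of 10 higher and 1 lower (8 and 1 in the window) and a median log2 fold change of 0.84. *Acta2*, the alpha actin of smooth muscle, was at 3196 and 2322 against 1539 and 1167 CPM (log2 fold change 1.02, SE 0.02, adjusted p = 2.3e-16). *Myl9*, a myosin regulatory light chain, was at 807 and 754 against 315 and 309 CPM (log2 fold change 1.32, SE 0.03, adjusted p = 5.5e-15), and *Lmod1*, leiomodin, at 28.1 and 23.9 against 9.77 and 9.97 CPM (log2 fold change 1.40, SE 0.08, adjusted p = 7.0e-10). Both *Tnmd*-positive sums exceeded both other sums for each of them and for *Actg2*. The exception was *S100a6*, a calcium-binding protein gene, with -0.48 (adjusted p = 2.8e-07). At the level of cells, at least 2 UMIs of *Cnn1*, calponin, were found in 71.7% and 62.5% of the *Tnmd*-positive cells. The share was 27% and 22.9% in the other cells, which were shallower, and 49% and 26.1% in the other cells in the depth window. Thinned to 3000 UMIs, at least 1 was expected in 37.04% and 34.6% of the *Tnmd*-positive cells and 15.8% and 20.9% of the other cells. It was expected in 25% and 14% of the other cells in the window and in 3.66% and 2.6% of the *Myod1* cells.

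TGF-beta and FGF signalling act early in limb tendon formation, and their genes went both ways. Of 17 TGF-beta genes, 5 were higher and 5 lower (6 and 3 in the window). Among the ligands, *Tgfb3* was at 61.1 and 49.97 against 31.4 and 31.2 CPM (log2 fold change 0.83, SE 0.06, adjusted p = 8.2e-09) while *Tgfb2* was at 139 and 142 against 207 and 214 CPM (log2 fold change -0.58, SE 0.04, adjusted p = 2.3e-09). The type II receptor gene *Tgfbr2* was at 24.8 and 29.9 against 19.2 and 19.95 CPM (0.48, adjusted p = 1.3e-05), and the pathway inhibitor *Smad7* at 96.1 and 78.9 against 121 and 113 CPM (-0.42, adjusted p = 9.3e-06). The genes called higher were *Tgfb1*, *Tgfb3*, *Tgfbr2*, *Ski* and *Fst*, and those called lower *Tgfb2*, *Tgfbr1*, *Smad4*, *Smad7* and *Inhba*, so that ligand and receptor genes were on both sides.

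Of 19 FGF genes, 8 were higher and 5 lower (9 and 4 in the window). The receptor gene *Fgfr2* was at 28.1 and 26 against 74 and 75.8 CPM (log2 fold change -1.47, SE 0.05, adjusted p = 6.2e-13). *Flrt3*, a membrane protein that associates with FGF receptors, was at 30.2 and 32.3 against 19.3 and 18.7 CPM (0.72, adjusted p = 1.8e-07). The feedback inhibitor genes *Spry1* and *Spry4* were at 22.8 and 19 against 14.9 and 12.8 CPM (0.60, adjusted p = 7.3e-06) and at 20.3 and 20.7 against 14.4 and 13.8 CPM (0.54, adjusted p = 1.0e-05). The genes called lower were *Fgfr1*, *Fgfr2*, *Fgfr3*, *Spred2* and *Etv5*, which include all 3 FGF receptor genes of the list.

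BMP and GDF genes, which act in cartilage and joint formation, were lower in 16 of 20 cases and higher in 1 (15 and 1 in the window), with a median log2 fold change of -0.50. The joint ligand *Gdf5* was at 5.16 and 2.99 against 21.4 and 18.8 CPM (log2 fold change -2.29, SE 0.14, adjusted p = 9.8e-10) and *Gdf10* at 7.57 and 8.97 against 26 and 27.2 CPM (log2 fold change -1.69, SE 0.09, adjusted p = 2.6e-10). *Bmpr1b*, the receptor of early cartilage condensations, was at 8.08 and 7.44 against 22.5 and 23 CPM (log2 fold change -1.55, SE 0.10, adjusted p = 1.7e-09), and the antagonist gene *Nog* (noggin) at 19.4 and 16.8 against 45.2 and 42.7 CPM (log2 fold change -1.28, SE 0.06, adjusted p = 9.2e-11). Ligand, receptor and antagonist genes were thus all represented among the decreases. The 1 higher gene was *Bmp5*, at 12.2 and 15 against 7.01 and 7.67 CPM (0.88, adjusted p = 2.0e-07).

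Of 24 WNT genes, 14 were lower and 5 higher (9 and 4 in the window). *Sfrp2*, a secreted modulator of WNT, was at 95.1 and 66.6 against 266 and 226 CPM (log2 fold change -1.61, SE 0.06, adjusted p = 3.4e-12). The antagonist gene *Dkk1* was at 27 and 15.6 against 54.4 and 42.8 CPM (log2 fold change -1.19, SE 0.09, adjusted p = 1.4e-08), the R-spondin receptor gene *Lgr4* at 14.7 and 13.6 against 28.8 and 30.1 CPM (log2 fold change -1.05, SE 0.07, adjusted p = 7.2e-09) and the ligand gene *Wnt4* at 9.23 and 14.6 against 25.1 and 21 CPM (log2 fold change -0.97, SE 0.13, adjusted p = 2.2e-05). All 4 were lower in the *Tnmd*-positive cells of both replicates. The genes called higher were *Wnt5a*, *Wnt11*, *Dkk2*, *Rspo2* and *Rspo3*, which encode ligands, an antagonist and R-spondins.

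All 18 cartilage genes tested were lower, over all cells and in the depth window, with a median log2 fold change of -2.29 and a summed level of 866 and 869 CPM against 2980.5 and 3364 CPM. The transcription factor gene *Sox5* was at 16.5 and 12.9 against 76.4 and 81.7 CPM (log2 fold change -2.41, SE 0.07, adjusted p = 6.9e-14), and *Acan*, the proteoglycan aggrecan, at 5.33 and 4.12 against 25.8 and 36.3 CPM (log2 fold change -2.68, SE 0.13, adjusted p = 3.6e-11). *Col2a1* was at 152 and 132 against 575 and 662 CPM (log2 fold change -2.11, SE 0.07, adjusted p = 5.1e-13) and *Sox9* at 129 and 131 against 342 and 376 CPM (log2 fold change -1.46, SE 0.04, adjusted p = 2.6e-14). *Cnmd* (ENSMUSG00000022025, chromosome 14, 79637690 to 79662170, minus strand), whose upstream window is printed above, was at 2.24 and 3.52 against 14.9 and 19.6 CPM (log2 fold change -2.59, SE 0.11, adjusted p = 1.0e-11). *Sox9* was lower but present, and 50.9% and 44.4% of the *Tnmd*-positive cells held at least 2 UMIs of both *Scx* and *Sox9*. Among the other cells in the depth window, which in replicate B were shallower, the share was 49.6% and 36.5%, so that cells with both were common outside the *Tnmd*-positive cells too.

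Joint interzone genes were lower in 7 of 13 cases and higher in 2 (*Ebf3* and *Sulf1*), the same counts as in the window. Besides *Gdf5* and *Sfrp2*, the ETS factor gene *Erg* was at 20.6 and 19.5 against 43.8 and 43.2 CPM (log2 fold change -1.12, SE 0.06, adjusted p = 1.7e-10) and *Jun* at 130.2 and 106 against 260.0 and 228 CPM (log2 fold change -1.05, SE 0.05, adjusted p = 2.9e-11). Of 13 perichondrium and bone genes, 6 were lower and 2, *Thbs2* and *Fbn2*, higher (4 and 2 in the window), with *Dlx5*, a homeobox gene of cartilage and bone precursors, at 26.9 and 24.7 against 40.4 and 36.7 CPM (-0.58, adjusted p = 3.6e-07) and the osteoblast regulator *Runx2* at 23.6 and 27.2 against 28.4 and 30.8 CPM (-0.22, adjusted p = 0.0024). *Runx2* did not pass in the window (adjusted p = 0.40), whereas *Dlx5* did.

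**Figure D4:**
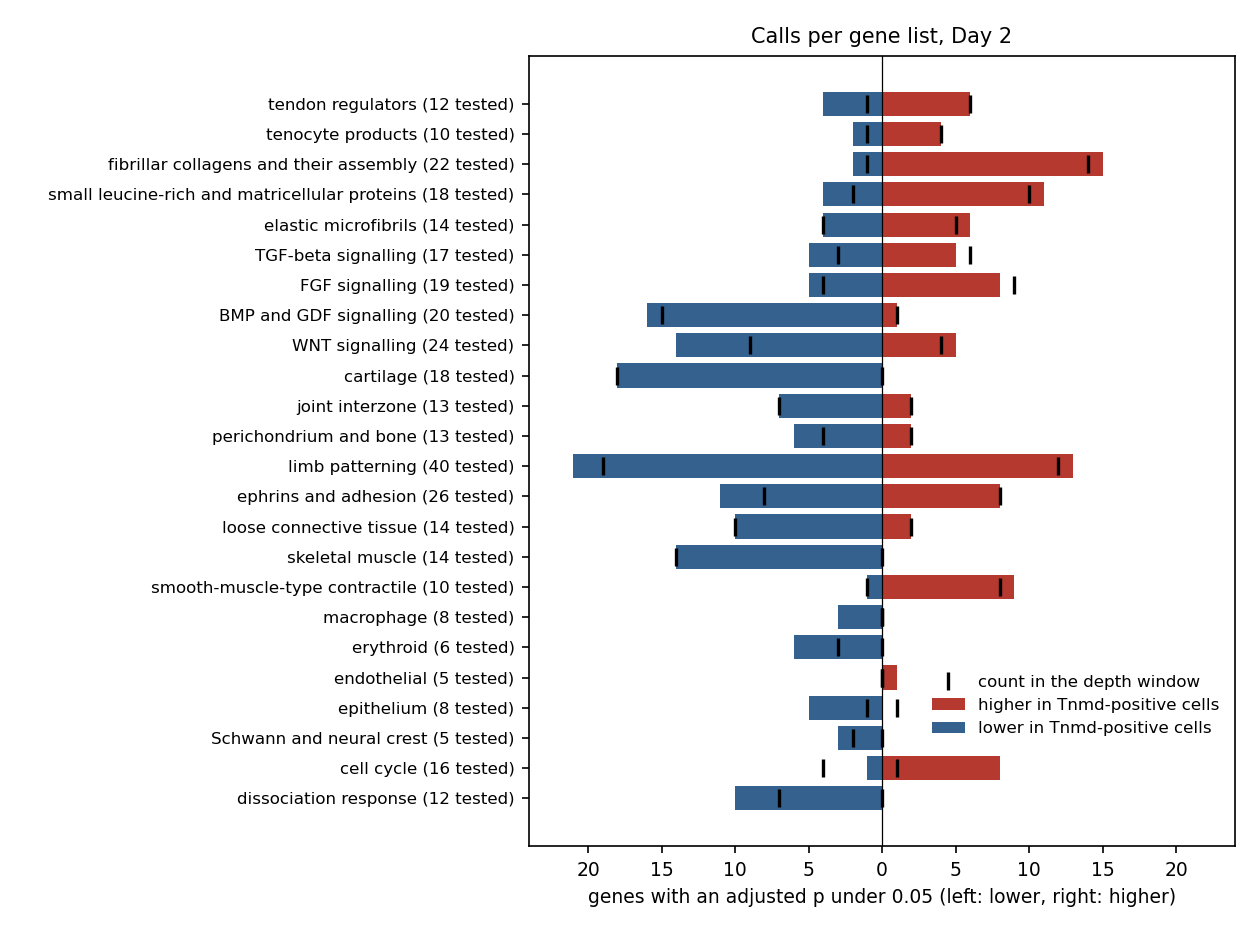
Number of genes per list (horizontal axis) called higher (to the right) or lower (to the left) in the *Tnmd*-positive cells at Day 2, by gene list with the number tested (vertical axis), bars for all cells and black marks for the depth window. Contractile and collagen genes lean to the right and cartilage, skeletal muscle and BMP genes to the left, whereas the 8 cell-cycle genes called higher become 1 in the window.

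Limb patterning genes, which give cells their position in the bud, split into 13 higher and 21 lower of 40 (12 and 19 in the window). *Emx2* and the T-box gene *Tbx2*, at 19.6 and 22.5 against 7.84 and 7.64 CPM (log2 fold change 1.44, SE 0.10, adjusted p = 3.0e-09), were the most increased of at least 20 CPM. *Hoxa13* was at 5.96 and 3.72 against 21.4 and 20.2 CPM (log2 fold change -2.09, SE 0.12, adjusted p = 3.3e-10) and *Asb4*, an ankyrin repeat gene that the study took as an anterior marker, at 27.2 and 22.1 against 74.6 and 75.7 CPM (log2 fold change -1.60, SE 0.07, adjusted p = 7.5e-12). Both genes were lower in each replicate.

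Other members of the list, named after their values were seen, are given by their place along the limb. The distal homeobox gene *Hoxd13* was at 14.1 and 11.5 against 29.3 and 28 CPM (-1.16, adjusted p = 7.6e-09), whereas *Hoxa11*, of the middle limb, was at 36 and 29.2 against 30.1 and 29.99 CPM (0.12, adjusted p = 0.16) and *Shox2*, of the proximal limb, at 233 and 256 against 109 and 119 CPM (1.10, adjusted p = 5.1e-13). *Lmx1b*, the determinant of dorsal identity, was at 19.7 and 21.5 against 11.8 and 13.4 CPM (0.71, adjusted p = 8.1e-07). The general limb mesenchyme gene *Prrx1* was at 534 and 527 against 418 and 428 CPM (0.33, adjusted p = 8.5e-08). *Hoxa13* and *Hoxd13* were lower and *Hoxa11* did not pass, while *Shox2*, *Lmx1b* and *Prrx1* were higher.

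Adhesion and ephrin genes, which sort limb cells, were higher in 8 and lower in 11 of 26 cases (8 and 8 in the window). N-cadherin, *Cdh2*, was at 103 and 111 against 74.9 and 73.9 CPM (0.52, adjusted p = 2.1e-08), while the ephrin receptor genes *Epha7* and *Epha4* were at 17.1 and 22.3 against 27 and 28.1 CPM (-0.50, adjusted p = 6.1e-05) and at 35.6 and 42.2 against 53.8 and 49.3 CPM (-0.41, adjusted p = 7.6e-05). The integrin gene *Itgb5* was at 19.6 and 19.1 against 25.4 and 24.8 CPM (-0.37, adjusted p = 7.8e-05). Genes of loose connective tissue were lower in 10 of 14 cases and higher in 2 (*Pdgfrb* and *Foxp1*), the same counts as in the window. The forkhead gene *Foxc1* was at 54.8 and 53.4 against 152 and 158 CPM (log2 fold change -1.51, SE 0.04, adjusted p = 4.5e-14), and *Osr1*, which marks irregular connective tissue, at 16.1 and 19.2 against 25.9 and 24.6 CPM (-0.52, adjusted p = 1.5e-04). The transcription factor genes *Tcf4* and *Foxp2* had log2 fold changes of -0.66 and -0.65.

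Markers of cells from other lineages were mostly lower or near 0. All 14 skeletal muscle genes were lower, with a summed level of 204 and 121 CPM against 849 and 656 CPM, and *Pax7* of muscle stem cells at 0 in replicate B. Besides *Ttn* and *Neb*, the sarcomere genes *Actc1* and *Tnnt1* were at 53.9 and 26.4 against 232 and 166 CPM (-2.32) and at 31.2 and 26.4 against 136 and 119.6 CPM (-2.15), and at least 2 *Myod1* UMIs were found in 0.877% and 0.871% of the *Tnmd*-positive cells against 3.89% and 2.06% of the others. All 6 erythroid genes were lower, at 0.939 and 2.09 CPM summed against 64.1 and 163 CPM. For the summed muscle and blood lists both *Tnmd*-positive sums were below both other sums.

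Macrophage genes summed to 21.8 and 1.12 CPM against 26.3 and 13.9 CPM, with 3 of 8 (*Tyrobp*, *Fcer1g* and *Trem2*) called lower and 0 in the window. The sums of replicate A were thus close in both groups and those of replicate B were not. At the level of cells, *Tyrobp* was found in only 1 of the 456 and 1 of the 459 *Tnmd*-positive cells. Its level in these sums thus rested on single cells, and the other macrophage genes were not counted per cell. Endothelial genes summed to 1.75 and 2.02 CPM against 1.61 and 1.58 CPM, epithelial genes to 99.4 and 57.9 against 106 and 73.9 CPM with *Krt14* at 0 in both replicates, and Schwann cell and neural crest genes to 3.63 and 3.29 against 12.6 and 14.1 CPM. Of these, 1 of 5 endothelial genes tested was higher (*Emcn*, at 0.344 and 0.332 against 0.0889 and 0.0632 CPM), and 5 of 8 epithelial genes (*Krt5*, *Krt14*, *Krt8*, *Krt15* and *Trp63*) and 3 of 5 Schwann cell and neural crest genes were lower. In the depth window *Emcn* was not tested and 0 of 3 endothelial genes were called, 1 of 7 epithelial genes was higher (*Krt18*) and 1 lower (*Trp63*), and 2 of 3 Schwann cell and neural crest genes were lower. The comparison cells held these lineages together with cartilage cells, and the part of such cells in each decrease was not tested.

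Cell-cycle genes were higher in 8 of 16 cases and lower in 1 (*Mcm6*), with small differences led by *Birc5* (273 and 243 against 196 and 194 CPM, 0.40), *Cdk1* (0.39), *Ccna2* (0.34) and *Aurkb* (0.32), which encode parts of the division machinery. In the depth window 1 was higher (*Birc5*) and 4 lower (*Mki67*, *Top2a*, *Cenpf* and *Pcna*), and *Top2a*, the topoisomerase of dividing cells, went from 0.17 to -0.18. The cell-cycle genes called higher thus went from 8 over all cells to 1 in the window. Immediate early genes that dissociation induces were lower in 10 of 12 cases (7 in the window) and higher in 0. *Fosb* was at 21.1 and 16.4 against 76.6 and 68.1 CPM (-1.94), *Fos* at 207 and 168 against 519 and 428 CPM (-1.34), and *Dusp1* at 15.8 and 11.2 against 28.8 and 26.1 CPM (-1.01). *Jun* and *Egr1*, given above among joint and tendon genes, belong to this list too, and the part of the dissociation response in their values was not tested.

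Because *Scx* was found in many other cells, a further comparison asked what differed among *Scx*-positive cells. Day 2 cells with at least 2 *Scx* UMIs and at least 2 *Tnmd* UMIs (391 and 335) were set against those with at least 2 *Scx* UMIs and 0 *Tnmd* UMIs (3797 and 2723). At least 2 *Scx* UMIs were also held by 20.4% and 15.4% of the *Myod1* cells, which should lack *Scx*. The cells without *Tnmd* can thus include cells of other lineages, and their part in the differences was not tested. Of 15372 genes tested, 2303 (15%) were higher and 2128 (13.8%) lower in the cells with *Tnmd*. In the depth window 1495 (10.7%) and 1511 (10.8%) of 13952 were called, and without replicate A or without replicate B 994 and 1213 were higher and 875 and 1083 lower. With 1 Day 2 library left, the spread in these fits comes from the other days alone.

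Among the *Scx*-positive cells, *Chodl* was at 27.7 and 20.5 CPM with *Tnmd* and at 2.49 and 1.83 without (log2 fold change 3.48, SE 0.33, adjusted p = 4.9e-06). *Actg2* was at 143 and 112 against 28.1 and 24 CPM (log2 fold change 2.29, SE 0.08, adjusted p = 2.5e-09), *Cited1* at 58.2 and 55.8 against 11.2 and 14.1 CPM (2.18), *Itih5* at 42.7 and 34.7 against 7.51 and 12.3 CPM (2.03) and *Emx2* at 21.3 and 32 against 6.01 and 7.27 CPM (1.98). These 5 most increased genes were all among the 12 named in the comparison with all other cells, with which this one shares its *Tnmd*-positive cells. The 5 most decreased were *Cytl1* (8.3 and 2.97 against 41.3 and 38.5 CPM, -2.78), *Mia* (-2.73), *Gdf5* (5.47 and 2.41 against 22.2 and 19.8 CPM, -2.39), *Sox5* (-2.21) and *Col9a1*, a cartilage collagen IX chain (82.8 and 71.1 against 349 and 362 CPM, -2.20).

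The gene lists in this split gave 0 higher and 17 lower of 18 for cartilage, 9 higher and 0 lower of 10 for contractile genes and 16 higher and 1 lower of 22 for fibrillar collagens. *Sox9* was at 132 and 132 CPM in the cells with *Tnmd* and 312 and 330.4 without (log2 fold change -1.28, SE 0.05, adjusted p = 2.5e-09), and *Col3a1* at 491 and 540.4 against 222 and 268 CPM (log2 fold change 1.08, SE 0.05, adjusted p = 9.2e-09). Of the remaining tendon regulators, tested without *Scx*, there were 5 higher and 3 lower of 11. Among those higher were *Eya1* (1.17), *Eya2* (0.80), *Egr2* (0.60) and *Etv4* (0.79), and *Egr1*, *Nfatc4* and *Tgif1* were the ones lower, while *Mkx* was at 9.95 and 14.1 against 11.6 and 12.7 CPM (adjusted p = 0.85). BMP and GDF genes gave 1 higher and 14 lower of 20, with *Bmp5* again the higher gene, and skeletal muscle genes 0 higher and 8 lower of 14.

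The difference between *Tnmd*-positive and other cells was then compared between Day 2 and the later days, each day against its own other cells. At an adjusted p under 0.05, the Day 2 and Day 7 differences departed from each other for 3971 of 18069 genes (22%), of which 1668 (9.23%) were higher and 2303 (12.7%) lower at Day 2, and the Day 2 and Day 10 differences for 4081 (22.6%), of which 1861 (10.3%) were higher and 2220 (12.3%) lower. Without the block by replicate these counts were 2348 and 2073. A departure can come from the *Tnmd*-positive cells or from the other cells of a day, which change in makeup, and these cannot be told apart from the ratio alone, so that levels are given beside the genes described. The comparisons of Day 2 with Day 7 and with Day 10 share the Day 2 libraries.

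In the *Tnmd*-positive cells *Scx* stood at 239 and 236 CPM at Day 2, at 64 and 73.6 by Day 7 and at 94.8 and 93.9 by Day 10. In the other cells it stood at 115 and 102 CPM, then 39.4 and 36.6 and then 64.2 and 60.3. Its log2 fold change was larger at Day 2 than at Day 7 by 0.27 (SE 0.08, adjusted p = 0.016) and than at Day 10 by 0.53 (SE 0.07, adjusted p = 3.2e-05). At least 2 *Scx* UMIs were found in 34.6% and 40.6% of the *Tnmd*-positive cells at Day 7 and 51.6% and 50.5% at Day 10. Both Day 2 sums of the *Tnmd*-positive cells lay above those of the later days, and the relative difference of *Scx* was largest at Day 2. Most of the 12 tendon regulators did not share this. At Day 2, 2 (*Scx* and *Eya1*) departed upward and 6 downward against Day 7, and 3 upward and 8 downward against Day 10. Of the 10 tenocyte products, 1 departed upward and 4 downward against Day 7, and 2 and 3 against Day 10.

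*Fmod* had low levels at Day 2 and higher ones later, at 69.6 and 90.3 CPM in the *Tnmd*-positive cells and 49.8 and 50.3 in the other cells at Day 7 and 119 and 124 against 79.3 and 69.97 at Day 10. Its relative difference was nonetheless largest at Day 2, by 1.20 against Day 7 and 1.17 against Day 10 (adjusted p = 3.8e-06 and 4.0e-06). *Col14a1* changed sign, being lower in the *Tnmd*-positive cells at Day 2 and at 103 and 127 against 71.7 and 72.8 CPM at Day 7 and 74.2 and 72.8 against 58.1 and 54.5 at Day 10 (difference -2.65, SE 0.10, adjusted p = 1.9e-11 for Day 7). *Chodl* did not pass against Day 7 (difference 0.39, SE 0.48, adjusted p = 0.64) but did against Day 10, where it was at 5.29 and 11.03 against 2.78 and 1.54 CPM (difference 1.39, SE 0.39, adjusted p = 0.016). The 2 Day 10 replicates stood apart in it, and *Thbs4* passed at neither later day (adjusted p = 0.29 and 0.069).

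Of the genes with the largest departures, *C1qtnf3*, a secreted C1q and TNF related protein, was at 21.5 and 14.2 CPM in the *Tnmd*-positive cells against 2.87 and 2.49 in the others at Day 2, and at 30.4 and 35.6 against 59 and 61.1 at Day 7 (difference 3.61, SE 0.13, adjusted p = 6.3e-12). It was thus higher in *Tnmd*-positive cells at Day 2 and was lower in them than in the other cells at Day 7. *Cryab*, a small heat-shock protein, went the other way, at 10.2 and 7.57 against 45.7 and 30.04 CPM at Day 2 and 153 and 149 against 71.4 and 65.6 at Day 7 (difference -3.24, SE 0.07, adjusted p = 4.3e-14). *Slpi*, a secreted protease inhibitor, was at 57.5 and 61.7 CPM in the *Tnmd*-positive cells of Day 7 against 11 and 10.3 in the others, and below 1 CPM in the *Tnmd*-positive cells of Day 2 (difference -5.64, SE 0.59, adjusted p = 2.0e-06).

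By list, contractile genes departed upward at Day 2 in 3 and downward in 4 of 10 against Day 7 (upward *Myl9*, *Actg2* and *Lmod1*, downward *Tagln*, *Tpm1*, *Tpm2* and *S100a6*), and in 8 and 1 (*S100a6*) against Day 10. For fibrillar collagens the counts were 8 upward and 5 downward of 22 against Day 7 (downward *Col1a1*, *Col1a2*, *Col14a1*, *Loxl1* and *Adamts2*) and 13 and 2 (*Col14a1* and *Bmp1*) against Day 10. For cartilage they were 2 (*Col9a2* and *Col11a1*) and 11 of 18 against Day 7. *Col2a1* passed against neither later day (adjusted p = 0.30 and 0.53), at 2541 and 2374 against 9906 and 9235 CPM at Day 7 and 1423 and 1673 against 6408 and 6066 CPM at Day 10. *Sox9*, at 184 and 181 against 318 and 314 CPM at Day 7 and 158 and 139 against 203 and 194 CPM at Day 10, departed downward at Day 2 (against Day 7, difference -0.67, SE 0.05, adjusted p = 8.2e-08). Cell-cycle genes departed downward in 15 of 16 against Day 7 and 11 against Day 10, and upward in 0. These are ratios, and levels were not lower at Day 2. *Top2a* was at 351 to 518 CPM across the *Tnmd*-positive classes of Day 2 and 154 to 308 across those of Day 7. In cells with 0 *Tnmd* UMIs it was at 362 and 422 CPM at Day 2 and 129 and 120 at Day 7. The calls of this list at Day 2 also differed in the depth window, as given above, and the cause was not tested.

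**Figure D5:**
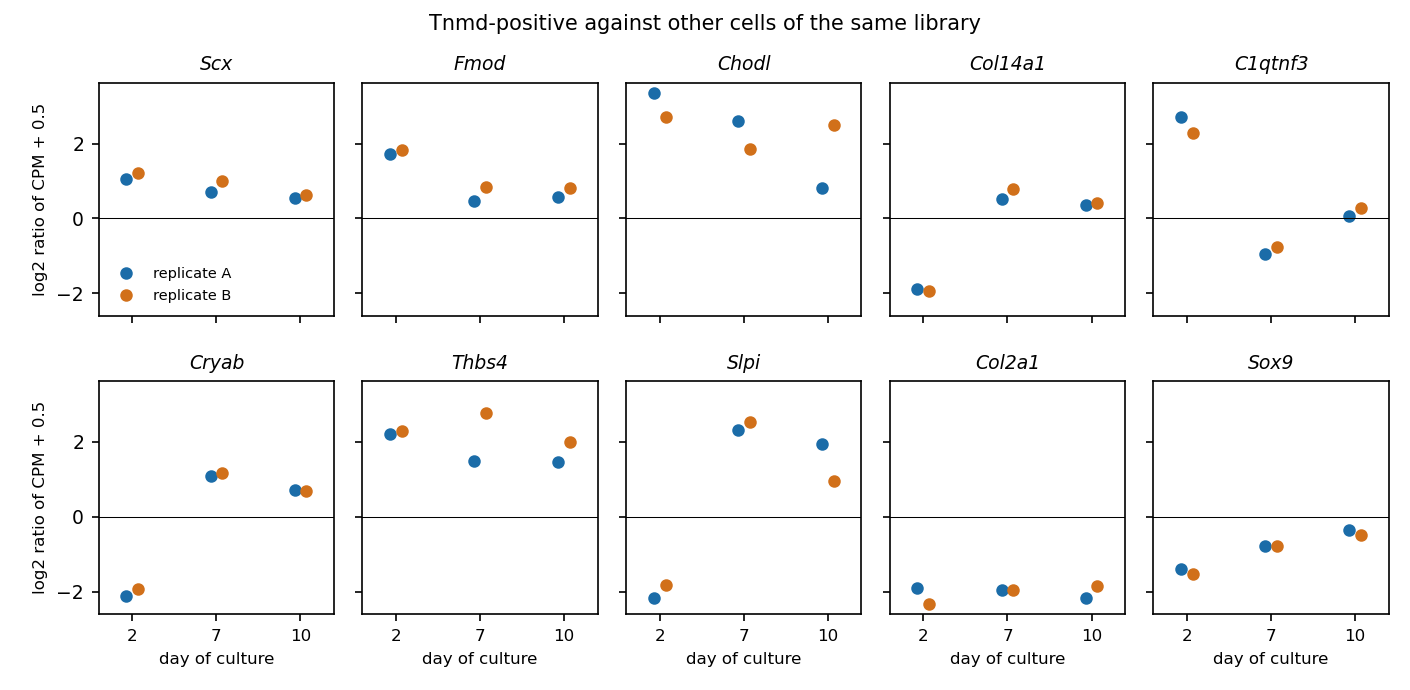
Log2 ratio of *Tnmd*-positive to other cells of the same library (vertical axis, CPM + 0.5) at Day 2, Day 7 and Day 10 (horizontal axis) for 10 genes, 1 point per replicate. *Col14a1*, *Cryab* and *Slpi* lie below 0 at Day 2 and above it at both later days, whereas *Scx*, *Fmod* and *Thbs4* lie above 0 on every day.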

How the data were processed

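Single-cell 3' RNA sequencing (10x Genomics v3.1) of 6 libraries was used, and the deposited values are UMI counts per gene and barcode (32286 genes), which the authors made with Cell Ranger 6.1.2 and STAR on GRCm38/mm10, without normalization. Samples were grouped by day and replicate from the titles in the labels. The members, gene lists and tests were chosen with earlier results of these data known. Limits on cells and the sums per library are described with the results. Summed counts (12 sums, 2 per library) were fitted with edgeR 4.0.16 in R 4.3.3 (filterByExpr, TMM, quasi-likelihood test, library as block, a term per day, 3 residual degrees of freedom), with *Tnmd* left out and, in the *Scx* split, *Scx* too, and p-values were adjusted by Benjamini-Hochberg over all genes. Both groups of cells of a replicate came from the same library, and their deviations from the group means correlated at 0.434, 0.100 and 0.325 at Day 2, Day 7 and Day 10. The spread behind every p-value was pooled over the 3 days (2 cultures of pooled embryos each) and moderated across genes, and a fit without 1 library of a day assumes that the library left varies like the other days. On simulated data the Day 2 fit recovered 93% of genes changed by log2 1 and 75% of those changed by log2 0.5. That simulation gave every gene the same spread and no difference between libraries or days except depth. Its changed genes were drawn from those above a minimum of expected UMIs in every sum. The rates therefore do not describe genes of low counts or of larger spread. Named were all tendon regulators, the 12 genes highest and 12 lowest by fold change (5 for the split and each day difference) past the threshold, with the same sign in both libraries and a mean of 20 CPM in the higher group, and up to 4 genes per other list by the same rule. All other genes, such as *Fmod*, *Thbs4*, *Col1a1*, *Col2a1*, *Sox9*, *Cnmd* and *Cnn1* and the members behind small counts, were named after their values were seen. Some members of the lists are not reported here. Thinned shares are hypergeometric expectations, and exact intervals are Clopper-Pearson. Alternatives were DESeq2 1.42.0, other scaling, filters, limits, thresholds of *Tnmd*, the depth window and leaving out libraries. Positions are from GENCODE on GRCm38. Cell types as named by the authors were not used here.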

Additional observations from a re-analysis of the deposited data

Results flagged for a closer look

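The results given here were picked because the difference between *Tnmd*-positive and other cells departed between Day 2 and a later day by the interaction test. Against Day 7 this held for 3971 genes. Those whose difference was higher at Day 2 were *C1qtnf3* (3.61 on the log2 scale), *Smpd3*, a sphingomyelinase (3.45), *Loxl4*, a lysyl oxidase-like enzyme (2.77), *Prg4*, lubricin (2.52), and *Actc1* (2.48), which was at 0.526 and 0.430 against 21.8 and 5.32 CPM at Day 7 and 53.9 and 26.4 against 232 and 166 CPM at Day 2. *Smpd3* and *Loxl4* were below 1 CPM in the *Tnmd*-positive cells of Day 2, and at Day 7 they were at 13.6 and 8.6 against 46.8 and 44.2 CPM and 5.11 and 5.23 against 24.8 and 20.8 CPM. *Prg4* was at 4.36 and 20.9 against 46.7 and 31.2 CPM at Day 7. Those whose difference was lower at Day 2 were *Slpi* (-5.64), *Cryab* (-3.24), *Lbp*, the lipopolysaccharide binding protein (-2.97), the predicted gene *Gm26771* (-2.90) and *Sfrp2* (-2.90). *Lbp* was at 28.04 and 32.97 against 6.45 and 7.9 CPM at Day 7 and 1.26 and 1.06 against 2.46 and 1.81 CPM at Day 2, and *Gm26771* at 13.8 and 11.8 against 6.26 and 5.56 and at 6.13 and 11.2 against 21.4 and 38.4. *Sfrp2* was at 75 and 78.5 against 31.8 and 31 CPM at Day 7, the reverse of its order at Day 2. *Gm26771*, annotated as antisense (chromosome 3, 83773853 to 83789956, minus strand), overlaps the end of *Sfrp2* (83766321 to 83774316, plus strand). They are thus not separate loci, and whether they share reads was not tested.

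Against Day 10 the departure held for 4081 genes. The difference was higher at Day 2 for *Smpd3* (3.54), the chemokine gene *Cxcl2* (2.88), *Prg4* (2.74), *C1qtnf3* (2.57) and *Podn*, the proteoglycan podocan (2.35). *Podn* was at 21.7 and 20 against 22.3 and 19.5 CPM at Day 10 and near 1 CPM or less at Day 2. *Cxcl2* was at 8.15 and 7.75 against 41.1 and 44.8 CPM at Day 10 and 1.66 and 0.664 against 1.04 and 0.695 CPM at Day 2. It was lower at Day 2 for *Hba-a1* (-6.90), *Slpi* (-4.66), *Neb* (-3.93), *Myl4* (-3.22) and *Cryab* (-2.80). *Myl4* was at 3.71 and 3.71 against 3.18 and 6.54 CPM at Day 10, and *Slpi* at 60.8 and 40.5 against 15.4 and 20.8 CPM. *Hba-a1* and *Neb* were below 1 CPM in all Day 10 sums, so that their differences rest on the Day 2 values and depend on the prior count of the fit. Some of these differences did not pass without a single library, where the library left of that day is assumed to vary like the others. That of *Actc1* against Day 7 was 1.31 (adjusted p = 0.31) without Day 7 replicate A and that of *Prg4* 2.04 (adjusted p = 0.15) without Day 2 replicate B. Against Day 10, that of *Prg4* was 2.25 (adjusted p = 0.10) without Day 2 replicate B, that of *Cxcl2* 2.36 (adjusted p = 0.26) without Day 2 replicate A, and that of *Hba-a1* -6.78 (adjusted p = 0.0501) without Day 2 replicate A and -4.32 (adjusted p = 1) without Day 10 replicate B. *Scx* departed by 0.27 against Day 7 and by 0.53 against Day 10.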

How the results depend on the processing

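Of 66 results for genes named by rule, 0 reversed under the alternatives run for them, and at most 6 fell short of the threshold under any setting (6 without the block by replicate, 5 with DESeq2 and 5 in the depth window), among them the differences between days of *Actc1*, *Cxcl2*, *Prg4*, *Hba-a1*, *Neb* and *Myl4*, and *Etv5* at Day 2 under 8 settings. Except for the tendon regulators, these genes were chosen for large changes past the threshold with the same sign in both replicates. That choice left little room for a reversal, so its absence says little about other genes. The main counts were 2739 genes higher and 3453 lower at Day 2. The depth window gave 1822 and 2012, and DESeq2 gave 1689 lower. With the spread taken from the other days alone, leaving out a Day 2 replicate gave 1882 to 2023 higher and 2046 to 2443 lower, the lowest without replicate A (2046), and without the block by replicate 1853 and 2621 were called. For the *Scx* split (2303 and 2128) the window gave 1495 higher, DESeq2 869 lower, and leaving out a replicate 994 to 1213 higher and 875 to 1083 lower. For the difference from Day 7 (3971) the fit without the block gave 2348, and leaving out a replicate 3055 to 3438. For the difference from Day 10 (4081) it gave 2073, the window 2573, and leaving out a replicate 2897 to 3402. The cause was not tested, beyond fewer cells in the window and fewer libraries. The share of *Tnmd*-positive cells in replicate A was 8.21% at 1 UMI or more, 3.59% at 3 or more, 6.15% without the limit on genes and 9.63% in the window, and in replicate B 10.6%, 3.09%, 5.71% and 5.31%, and 2.92% with the study's limits. The alternative of cells of at least 20000 UMIs (2283 and 2542 called) was chosen after seeing the data. Genes such as *Kera* and *Comp* were at or under 1.6 CPM, near the lower end of detection.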

Other observations

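At least 2 UMIs of *Tppp3* were found in 46.1% and 46.2% of the *Myod1* cells at Day 2, against 3.73% and 2.4% of the *Tnmd*-positive cells. The limit of 7500 detected genes removed 665 and 470 Day 2 barcodes, of which 135 and 124 held at least 2 *Tnmd* UMIs. Below 3000 UMIs, 1 and 23 barcodes held at least 2 *Tnmd* UMIs.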
